A study of Mus musculus with 2 samples.

Results

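The transcripts examined here belong to 7 mouse genes that encode inhibitors of cyclin-dependent kinases (CDKs), namely Cdkn1a, Cdkn1b, Cdkn1c, Cdkn2a, Cdkn2b, Cdkn2c and Cdkn2d. Their probes were taken as every non-control probe on both arrays whose accession RefSeq assigns to one of these genes, which gave 10 of 39429 probes. Gene expression was measured in ureters of NMRI mouse embryos at stage E14.5. The ureters labelled Tbx2/Tbx3cDKO (labelled cDKO below) carried Tbx18(cre/+) together with Tbx2(fl/fl) and Tbx3(fl/fl), so that both T-box genes were floxed on both alleles. In them, Cre recombinase made from the Tbx18 locus acts in the progenitors of the ureteric mesenchyme, so that the urothelium is not targeted. The control ureters were Tbx18(+/+), hence without Cre, and carried Tbx2(fl/?) and Tbx3(fl/?), each with 1 floxed allele and 1 that the labels do not specify. The data were 2 two-colour Agilent arrays, each carrying a labelled cDKO and a control RNA of the same sex. Replicate 1 was the female pair, with the labelled cDKO RNA in AlexaFluor647 (red), and replicate 2 the male pair, where that RNA was in AlexaFluor555 (green). Sex and dye therefore cannot be told apart. The sources used here do not give the number of embryos behind an RNA. The p-values draw on no samples but these, and they rest mostly on a variance shared over probes.

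CDKs push a cell through its division cycle, and CDK inhibitors hold them back. The proteins of Cdkn1a (p21), Cdkn1b (p27) and Cdkn1c (p57) form the CIP/KIP family, which binds complexes of cyclins with several CDKs. Those of Cdkn2a (p16), Cdkn2b (p15), Cdkn2c (p18) and Cdkn2d (p19) form the INK4 family, which binds CDK4 and CDK6. From another reading frame Cdkn2a also encodes ARF, which stabilizes p53. TBX2 and TBX3 are T-box transcription factors known mainly as repressors. In cultured cells they silence Cdkn1a and the ARF product of Cdkn2a, and in the mesenchyme of the embryonic mouse lung TBX2 holds down Cdkn1a and Cdkn1b. The comparison therefore asks whether these transcripts were higher in the labelled cDKO ureters.

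Because the question is one of repression by T-box factors, the promoters of the members were searched for the DNA letters that T-box proteins are known to bind. RefSeq promoter windows (build GRCm38.p6, from 250 bases before a gene's start to 50 after it) were available for 6 of the 7 genes, all but Cdkn1c, in 9 windows. The full letters AGGTGTGA, on either strand, occurred in 1 of these 9 windows, against 1.28% of 32851 windows over all genes. That window belongs to the downstream of the 2 annotated starts of Cdkn1a, and the letters lie at positions 14 to 21, counting the start as 1. The shorter core GGTGTG, which is contained in the longer letters and so overlaps them, occurred in windows of Cdkn1a and Cdkn2a, which is 2 of 9, against 19.0% of all windows. The stretches that hold a match are shown with the matched letters in capitals.
Cdkn1a, chr17:29093771-29093800, plus strand, around the full letters: cagcagccgagAGGTGTGAgccgccgcggt
Cdkn1a, chr17:29093572-29093601, plus strand, core at -185 to -180 from the same start: gagaatagcccaGGTGTGggggaggggagg
Cdkn2a, chr4:89282208-89282237, minus strand, core on the opposite strand at -33 to -28 from the downstream start: ccccccccccccCACACCatcctcagagga
A match of letters is a description of the sequence and shows no binding.

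The targeted genes were read first. The Tbx3 probe had log2 ratios, labelled cDKO over control, of -1.16 (female) and -1.02 (male), and the Tbx2 probe had 0.94 and 0.78. Tbx3 thus fell and Tbx2 rose in both pairs (limma, adjusted p = 0.000642 and 0.00189), so the Tbx2 transcript runs counter to its label. Tbx18, the driver locus, was at 0.15 and did not pass. The sources used here do not place these probes relative to the floxed parts. A probe that lies outside such a part checks nothing.

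No CDK inhibitor passed the threshold in the labelled cDKO ureters, in either direction. Of the 10 probes, 7 were bright enough to test, and they covered 6 of the 7 genes, with Cdkn2a missing. At an adjusted p under 0.05 in limma, 0 of the 7 were called, while 3.77% of the 25934 probes tested were called, 1.85% as higher and 1.92% as lower. At an unadjusted p under 0.05 the members were Cdkn1a, which was higher, and Cdkn2c, which was lower, so 2 of 7, against 13.8% of all probes tested. The mean log2 ratios ran from -0.22 for a Cdkn2b probe to 0.25 for Cdkn1a, with a median of -0.0053, against -0.0014 over all probes tested. The 95% confidence intervals of the 7 probes together spanned 0.734-fold to 1.33-fold in the fit as reported. The smallest mean change that was called anywhere on the arrays was 0.33 log2 units in size, larger than that of any tested CDK inhibitor probe.

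**Figure D1:**
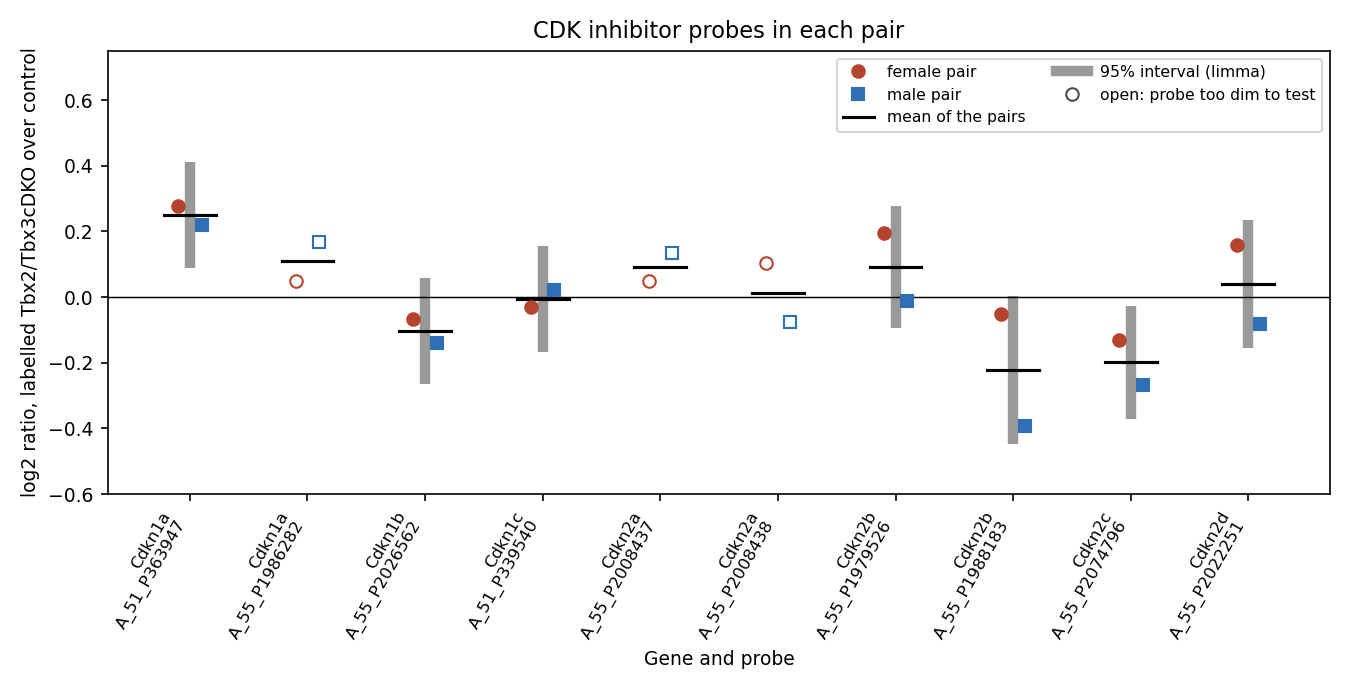
Log2 ratio of labelled cDKO over control for the 10 probes of the 7 CDK inhibitor genes. Circles are the female pair, squares the male pair, black bars their mean and grey bars limma's 95% interval, and open symbols mark 3 probes too dim to test. Cdkn1a (A_51_P363947), at 0.28 and 0.22, lies above 0 in both pairs, while Cdkn1b, Cdkn2c and 1 probe of Cdkn2b lie below 0 in both.

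In the CIP/KIP family, Cdkn1a was the member that was higher in both pairs, Cdkn1b was slightly lower in both, and Cdkn1c had pairs of opposite sign. Cdkn1a encodes p21, the classic target of p53 and one of the CDK inhibitors reported as repressed by TBX2 and TBX3. Its bright probe (A_51_P363947, transcript NM_007669) had normalized log2 intensities of 10.42 in the female and 10.27 in the male labelled cDKO ureters, against 10.15 in the female and 10.05 in the male control ureters. Both labelled cDKO values were above both control values, so the groups did not overlap for this probe, as for 17.6% of all probes tested in that direction. Without regard to direction the groups did not overlap for 35.2% of all probes tested and for 3 of the 7 tested CDK inhibitor probes, those of Cdkn1a, Cdkn1b and Cdkn2c. The log2 ratio was 0.25 ± 0.042 (SD, n = 2 pairs), a level 1.19-fold that of control with a 95% interval of 1.06-fold to 1.33-fold, and it did not pass after adjustment over all probes (limma, adjusted p = 0.131). That mean was higher than those of 95.9% of the probes tested.

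The other Cdkn1a probe (A_55_P1986282, transcript NM_001111099) was too dim to test. In the labelled cDKO ureters 1 of 4 spots was well above background in the female and 3 of 4 were in the male, against 2 of 4 and 0 of 4 in the control ureters. Spots passed more often in whichever RNA carried the green dye. This probe gives no fold change for its transcript.

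Cdkn1b encodes p27, whose amount in cells is set largely by protein breakdown. Its probe had log2 intensities of 13.46 and 13.43 in the female and male labelled cDKO ureters, against 13.53 and 13.57 in the control ureters. The labelled cDKO values were the lower ones in both pairs, and the groups did not overlap, as for 17.6% of all probes tested in the lower direction. The log2 ratio was -0.10 ± 0.050 (SD, n = 2 pairs), with a 95% interval of 0.832-fold to 1.04-fold, and it did not pass (limma, adjusted p = 0.657).

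Cdkn1c encodes p57 and is imprinted, with expression from the maternal copy. Log2 intensities were 17.25 and 17.21 in the female and male labelled cDKO ureters, against 17.28 and 17.19 in the control ureters. The groups overlapped, and the pairs had opposite signs. The log2 ratio was -0.0053 ± 0.037 (SD, n = 2 pairs; limma, adjusted p = 0.994), or 0.052 with median centring of the arrays in place of loess, and the 95% interval ran from 0.891-fold to 1.11-fold. No spot on either array was saturated, this bright probe included.

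**Figure D2:**
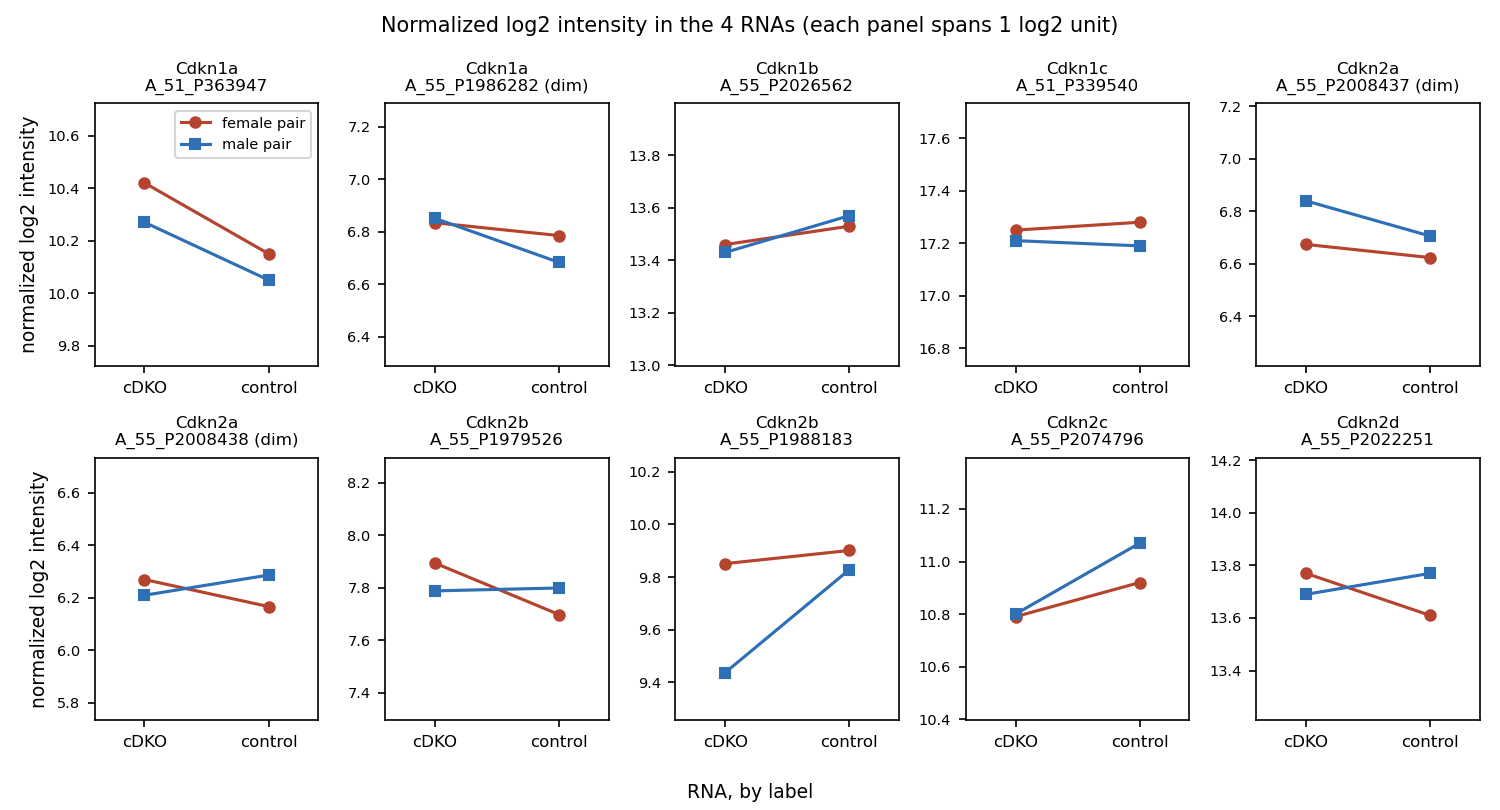
Normalized log2 intensity of each CDK inhibitor probe in the 4 RNAs, with labelled cDKO left and control right in each panel and a line joining the RNAs of a pair. Every panel spans 1 log2 unit around its own mean, since levels of different probes are not comparable. Both lines slope down to control for Cdkn1a and up to control for Cdkn2c, and the pairs slope in opposite directions for Cdkn1c, Cdkn2d, Cdkn2b (A_55_P1979526) and the dim Cdkn2a probe A_55_P2008438.

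In the INK4 family no tested probe was higher in both pairs. Cdkn2c encodes p18, an INK4 protein that many embryonic tissues make. Its probe had log2 intensities of 10.79 and 10.80 in the female and male labelled cDKO ureters, against 10.92 and 11.07 in the control ureters. Both labelled cDKO values were below both control values, again as for 17.6% of all probes. The log2 ratio was -0.20 ± 0.098 (SD, n = 2 pairs), with a 95% interval of 0.774-fold to 0.981-fold, and it did not pass after adjustment (limma, adjusted p = 0.270).

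Cdkn2b encodes p15, best known as a target of TGF-beta signalling, and its probes disagreed. The brighter probe (A_55_P1988183) had log2 intensities of 9.85 and 9.44 in the female and male labelled cDKO ureters, against 9.90 and 9.83 in the control ureters. The groups overlapped, and most of the difference came from the male pair, at -0.39, while the female pair was at -0.050. The mean was -0.22 ± 0.24 (SD, n = 2 pairs; limma, adjusted p = 0.373), with a 95% interval of 0.734-fold to 1.00-fold. The dimmer probe (A_55_P1979526) had 7.89 and 7.79 in the female and male labelled cDKO ureters, against 7.70 and 7.80 in the control ureters. There the female pair was at 0.20 and the male pair at -0.011, so that the groups overlapped and the mean of 0.092 ± 0.15 (SD, n = 2 pairs) had the opposite sign to that of the brighter probe (limma, adjusted p = 0.781).

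Cdkn2d encodes p19, the INK4 protein distinct from ARF. Log2 intensities were 13.77 and 13.69 in the female and male labelled cDKO ureters, against 13.61 and 13.77 in the control ureters. The ratio was 0.16 (female) and -0.081 (male), and the groups overlapped. The mean was 0.039 ± 0.17 (SD, n = 2 pairs; limma, adjusted p = 0.954), with a 95% interval of 0.898-fold to 1.18-fold.

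Cdkn2a, the INK4 gene next to Cdkn2b on chromosome 4 and the other classic target of TBX2 and TBX3, could not be compared. One probe (A_55_P2008438) had 0 of 4 spots well above background in every RNA. The other (A_55_P2008437) had 0 of 4 in the female and 4 of 4 in the male labelled cDKO ureters, against 1 of 4 and 0 of 4 in the control ureters. The spots of this probe that passed were all in the green dye, while for the dim Cdkn1a probe most were. In the authors' deposited table the 3 dim probes of Cdkn1a and Cdkn2a each carry a value of exactly 1 in both pairs, which is no measured ratio. No fold change of Cdkn2a was thus obtained with these arrays. A probe well above background in both labelled cDKO RNAs would have been tested even if dim in control, and neither Cdkn2a probe was. The sources used here do not say which of its products, p16 or ARF, a probe reads.

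The authors' deposited table gives 1 signed fold per pair. Its minus sign was read as lower in labelled cDKO, from its correlation with the ratios of these same arrays. Its signs matched those above for the 7 bright probes in both pairs, which is no independent check. In the authors' deposited table Cdkn1a stands at 1.23 (female) and 1.17 (male), and Cdkn2c at -1.09 and -1.21. The brighter Cdkn2b probe stands at -1.05 and -1.44 in the authors' deposited table. How that table was centred and floored is unknown.

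**Figure D3:**
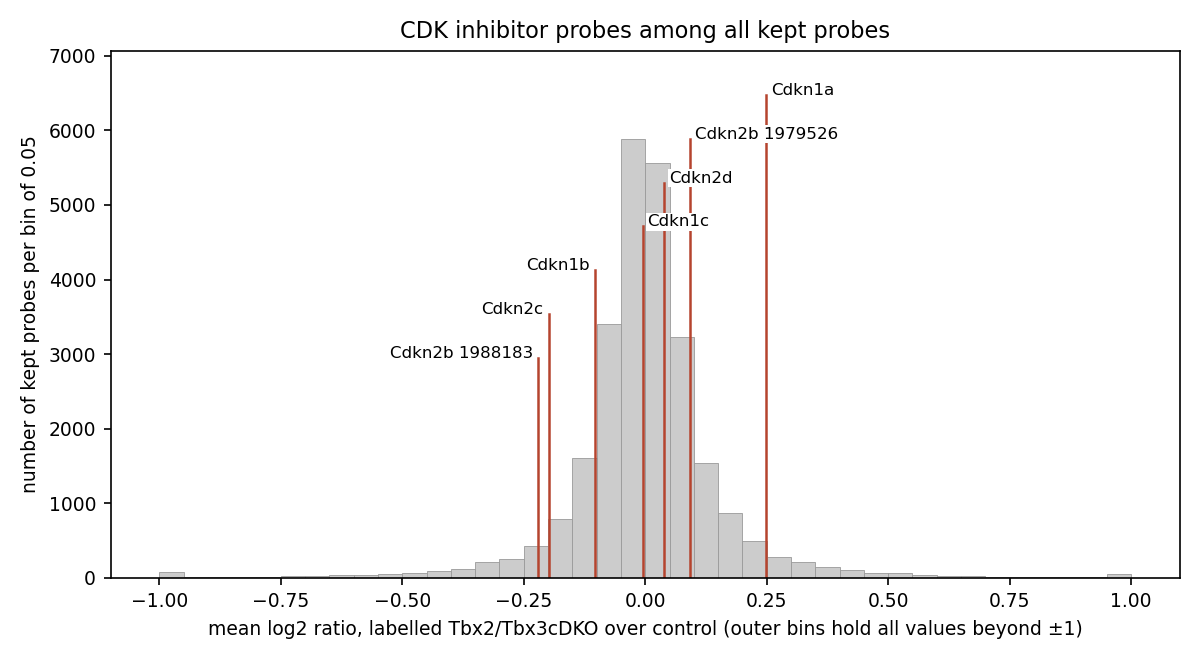
Mean log2 ratio (labelled cDKO over control) of the 7 tested CDK inhibitor probes, as red lines, over the histogram of all 25934 tested probes in bins of 0.05. The lines run from -0.22 to 0.25, inside the range that holds most probes, and the heights of the lines carry no meaning.

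Set among all probes, the tested CDK inhibitor probes lay mostly within the bulk of the distribution. The 5th and 95th percentiles of the mean log2 ratio over all probes tested were -0.22 and 0.22, and Cdkn1a lay above that range, with the brighter Cdkn2b probe just below it. Of the probes tested, 91.8% had a mean no larger in size than that of Cdkn1a. Across the 7 tested probes of 6 genes, 1 was higher in both pairs, 3 were lower in both and 3 had opposite signs in the pairs, as did 44.5% of all probes tested.

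The genes around the CDK inhibitors were read from lists, with the brightest tested probe of each gene. The 8 lists covered cyclins and kinases, RB and E2F factors, turnover of p27 and p21, and p53 targets. They also covered Polycomb and related regulators, other reported T-box targets, senescence and division. In these lists 3 of 89 genes were called higher and 0 lower (limma). Over all 20629 genes 3.9% were called, 1.99% as higher and 1.91% as lower. The median over these 89 genes was -0.0097, against -0.0022 over all genes.

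Among the targets that the CDK inhibitors act on, 0 of 9 tested genes of the G1 cyclins and their kinases passed. The cyclins that activate CDK4 and CDK6 had log2 ratios of 0.0042 (Ccnd1), -0.072 (Ccnd2) and -0.017 (Ccnd3), and Ccne1, the cyclin of CDK2, had -0.030. The kinases in the list were at -0.031 (Cdk4), -0.0041 (Cdk6), 0.043 (Cdk2) and -0.12 (Cdk1). The pairs of Cdk1 had opposite signs, at 0.15 (female) and -0.39 (male), and its dimmer probe was at -0.053. With other processing the sign of Ccnd1, Ccnd3, Ccne1, Cdk4 and Cdk6 turned, so these 5 have no settled direction. The probe of Ccne2, another cyclin of CDK2, had 0 spots above background.

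Downstream of the kinases, 0 of 13 genes of the RB family and E2F factors passed. Rb1, the brake on S phase entry that the kinases phosphorylate, was at 0.018. Its relatives were at 0.0033 (Rbl1, negative with the median of pixels) and 0.034 (Rbl2). A dimmer Rbl1 probe was at -0.17 and did not pass (limma, adjusted p = 0.552). The E2F factors with the largest values were E2f8 at -0.12 and E2f6 at -0.088, both of them repressors. In the list of S phase and mitosis 0 of 15 genes passed, with a median of -0.017. Of the 15, 5 lay above 0, against 10089 of 20629 over all genes. The largest values were those of Pcna, the clamp of replicating DNA polymerase, at -0.14 and Top2a, a topoisomerase of dividing cells, at 0.13.

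The list of p53, an activator of Cdkn1a, and its other targets had 2 of 14 genes higher and 0 lower, with a median of 0.0015. Bax, a pore-forming protein that promotes apoptosis, was at 0.42 ± 0.12 (SD, n = 2 pairs; limma, adjusted p = 0.0337), and Pmaip1 (Noxa), which promotes it by binding BCL2 relatives, was at 0.33 ± 0.012 (limma, adjusted p = 0.0498). Neither gene passed with the scanner's own processed signals (adjusted p = 0.0932 and 0.0886), with median centring (0.182 and 0.264) or with the values of the authors' deposited table (0.126 and 0.160). Pmaip1 also missed the threshold under 4 further alternatives (adjusted p 0.0519 to 0.0596), so that it passed in 5 of 12, against 9 of 12 for Bax. Trp53 itself was at 0.098, and its negative regulator and target Mdm2 was at -0.013, or 0.015 with median centring. The list's other targets lay between -0.16 (Btg2) and 0.099 (Bbc3).

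Among genes that set how much p27 and p21 protein is kept, 0 of 9 passed. Skp2, the ubiquitin ligase subunit that marks p27 for breakdown, was at 0.028, and Dtl, the adaptor that marks p21, had the largest value in size, at -0.14. Polycomb proteins silence the chromatin of Cdkn2a and Cdkn2b. The list of these proteins and other regulators of that chromatin had 0 of 15 genes called, with Bmi1 at 0.100 and Cbx2 at -0.11. Of the genes reported elsewhere as repressed by TBX2 or TBX3, 0 of 4 tested passed, with Cdh1 (E-cadherin) at 0.048, Gja1 (a gap junction connexin) at -0.080 and Ndrg1 at 0.083. Too dim to test were Nppa, a cardiac target, and, in the other lists, Eda2r, Cbx7, Il6 and Aurkb, and Sesn2 had no usable spots.

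In the senescence list 1 of 10 tested genes was higher and 0 were lower. That gene was Hmga2, a chromatin protein of embryonic tissues that is known in mouse neural stem cells to lower Cdkn2a, at 0.43 ± 0.090 (SD, n = 2 pairs; limma, adjusted p = 0.0238). Its other probe, at 0.49, passed as well (limma, adjusted p = 0.0129). The call ended with the processed signals (adjusted p = 0.0812), with median centring (0.154) and with the values of the authors' deposited table (0.109).

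**Figure D4:**
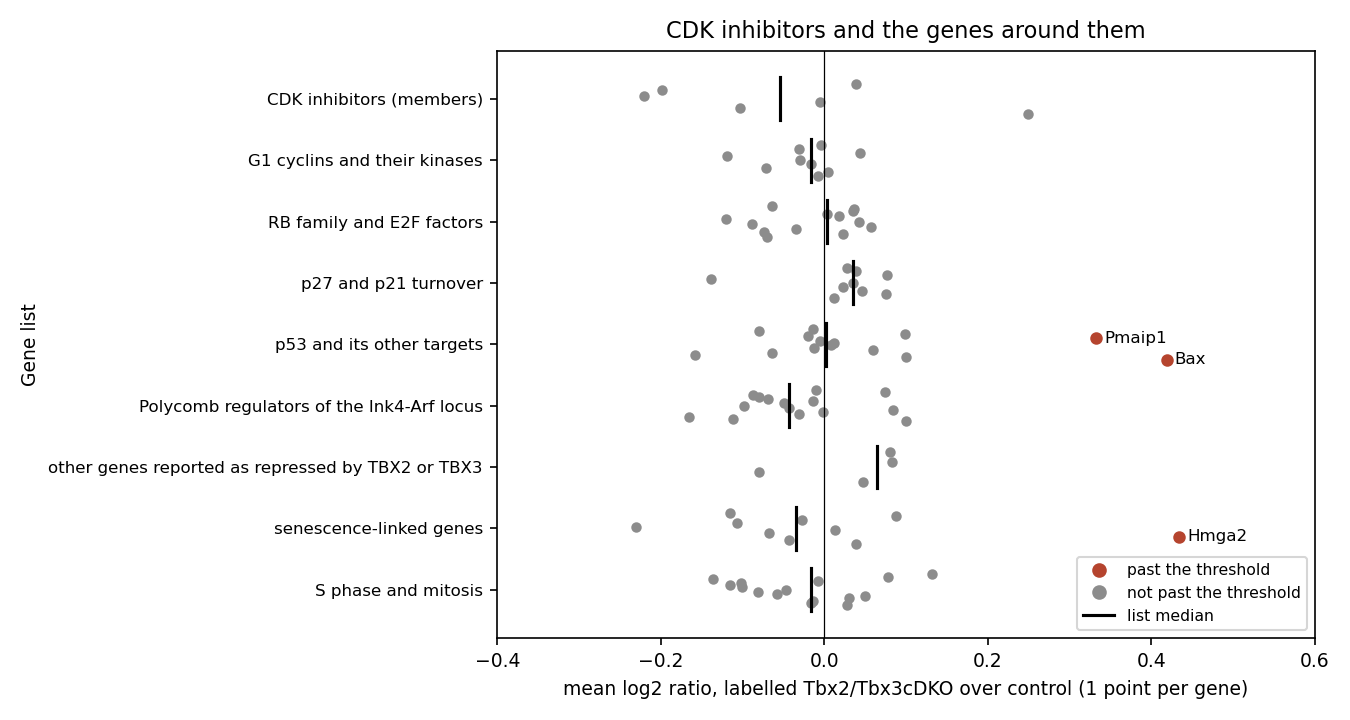
Mean log2 ratio (labelled cDKO over control) of each tested gene, 1 point per gene, in the CDK inhibitor list and the 8 lists around it. Black ticks are list medians, and red points, which are Bax, Pmaip1 and Hmga2, passed the threshold. The CDK inhibitor points lie between -0.22 and 0.25 around a list median of -0.054, and none is red.

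Markers of the ureter's cell types were read beside the values above. All 6 smooth muscle markers were lower, with a median of -3.05 and summed intensities of 22780 and 23230 in the female and male labelled cDKO ureters, against 158200 and 215100 in the control ureters. In bulk tissue fewer cells of a type and less RNA per cell cannot be told apart. Urothelium markers, whose cells are not targeted, had a median of 0.015 with 0 of 10 called. Their means ran from -0.29 (Upk1b) to 0.27 (Upk3a), with 3 markers higher in both pairs and 2 lower in both. Their summed intensities were 62810 and 60600 in the female and male labelled cDKO ureters, against 59840 and 63280 in the control ureters. Markers of other cells had medians above 0, at 0.27 for nerve and glia (2 of 7 higher), 0.34 for red blood cells (2 of 5 higher), 0.19 for endothelium (0 of 6) and 0.17 for immune cells (0 of 5). Of the 8 mesenchyme markers, Bmp4 rose and Foxf1 and Pdgfra fell, around a median of 0.041. None of these markers lacked signal above background in either group. The part of these shifts in the values of the CDK inhibitors was not tested.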

How the data were processed

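Arrays were read with Agilent Feature Extraction 10.7.3.1, as the submitters' processing notes name it. The deposited scanner files give the raw intensity of each spot and its local background in a green and a red channel, and processed signals, corrected for background and dye per the file headers. The authors also deposited a table with a signed fold score per probe and array, which the sources used here do not explain further. Its direction was taken from its correlation with the turned processed ratios (0.982 and 0.984 over 24839 bright probes).

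Mean intensities were corrected with normexp (offset 50) and normalized by loess in each array. Spots marked non-uniform were dropped, the 4 spots of each probe averaged, and ratios turned to labelled cDKO over control. Levels per RNA were taken after Aquantile normalization between arrays. A probe was tested if, on both arrays, the labelled cDKO or else the control channel had over 0.5 of its spots well above background, which left 25934 of 39429. Well above background, 70.8% and 71.6% of green and 66.9% and 64.3% of red spots were counted. Ratios were tested with limma 3.58.1 in R 4.3.3 (two-sided, Benjamini-Hochberg over all probes tested, threshold 0.05), with 1 residual and 5.63 prior degrees of freedom, so the p-values rest mostly on a variance shared over probes. Errors are SDs over 2 pairs, and the number of arrays limits the precision. The procedure was tested on simulated data. The changes set there were larger than the mean change of any tested CDK inhibitor probe, so changes of that size were not covered.

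Accessions were paired with symbols through RefSeq (GRCm38.p6; the build behind the array design is not named in the sources used), which named 28328 probes. A gene in a list was represented by its brightest tested probe. Members, lists and the rule for named genes (all probes of the members, a fixed set of cycle and T-box genes, and up to 4 called genes of each list or its 2 largest where none was called) were chosen with earlier results of these data known. With 2 ratios per probe no search for genes of like pattern was made. Alternatives covered background, signal, normalization, filter, flags, probe choice and variance model. Values of some single genes in the lists are not reported here.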

Additional observations from a re-analysis of the deposited data

Results flagged for a closer look

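Some values had opposite signs in the female and male pairs. Each sex is 1 pair and the dyes differ between them as well, so none of these differences was tested, and 44.5% of all probes tested had pairs of opposite sign. Given as male minus female on the log2 scale, the difference was -0.24 for Cdkn2d, -0.21 for the dimmer Cdkn2b probe (A_55_P1979526) and 0.053 for Cdkn1c. Among list medians it was 0.060 for the G1 cyclins and their kinases, 0.024 for the RB family and E2F factors and -0.029 for p53 and its other targets.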

How the results depend on the processing

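Over the 12 alternatives with a test, giving 83 values for the 7 tested CDK inhibitor probes, 0 passed the threshold, with a lowest adjusted p of 0.116 (Cdkn1a), a lowest unadjusted p of 0.00527 and values between -0.30 and 0.28. Signs held in all but 1 of these, Cdkn1c at 0.052 with median centring. Other signs that turned were, with median centring, Ccnd3 at 0.025, Cdk4 at 0.023, Cdk6 at 0.0048, Ccne1 at 0.0069 and Mdm2 at 0.015. Rbl1 was at -0.0072 with the median of pixels, Ccnd1 at -0.0025 with scaling between arrays and Ccnd3 at 0.00061 with the deposited values. With the processed signals, median centring and the deposited values, called probes fell to 305, 170 and 162 higher and 302, 199 and 186 lower, against 480 and 498 as reported, and 0 genes of the lists were called higher, against 3. The causes were not tested. Tbx2 and Tbx3 passed under all 12 alternatives.

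Leaving out a replicate leaves 1 pair and no test. The values are then those of the other pair, between -0.39 and 0.28. With no filter on dim probes, the dim probes of Cdkn1a (0.11) and Cdkn2a (0.092 and 0.013) did not pass (adjusted p 0.758 to 0.998). The reported fit is itself paired, since each ratio is a difference within an array, and no unpaired fit was made. Signal over background limits Cdkn2a and the other Cdkn1a transcript.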
